A study of Homo sapiens with 8 samples.

Results

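Tight junctions seal the space between neighbouring epithelial cells near their apical side and separate apical from basolateral membrane. Claudins form the paired strands that set which ions and solutes pass, occludin and tricellulin belong to the MARVEL family of membrane proteins at bicellular and tricellular contacts, and JAM-A is an immunoglobulin-type adhesion molecule. ZO-1, a scaffold of the cytoplasmic plaque, binds many of these proteins through PDZ and other domains and ties them to actin. In the mammary gland these seals keep milk components inside the lumen.

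The 9 genes described here were chosen by name: the claudin genes CLDN1, CLDN3, CLDN4, CLDN8 and CLDN12, OCLN for occludin, MARVELD2 for tricellulin, F11R for JAM-A and TJP1 for ZO-1. Of these, 7 had a row of their own in both deposited tables, out of 43241 gene rows found in both. F11R was listed in a row joined with TSTD1, and CLDN12 in a row joined with CDK14 and GTPBP10, so neither met the choice by name, and their joined rows are given as such. Of the 7, 5 reached 1 FPKM (fragments normalised to transcript length and library size) in either group of each table, and CLDN3 and CLDN8 did not.

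RNA was sequenced from 8 samples in 4 groups of 2. NOTCH1-labelled cells, described in the labels as MCF10A with the NOTCH1 intracellular domain overexpressed, received ginkgolic acid at 30 µM or its solvent DMSO for 3 days, and so did MCF10A cells, an immortalised, non-tumorigenic line of human breast epithelium. Ginkgolic acid inhibits the attachment of SUMO to proteins. All groups grew in medium with horse serum, insulin, cholera toxin, epidermal growth factor and hydrocortisone. The labels give neither the promoter and vector of the NOTCH1 construct nor whether the line is 1 clone.

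The tables give 1 FPKM value per gene and group. They allow no replicate error and no test of a difference, and sequencing depth is unknown. "Higher" and "lower" therefore compare single group values, and a gene is counted as changed at a size of at least 2-fold. Each table was scaled on its own, so levels set across the lines carry an unknown factor. In bulk RNA, fewer cells with a transcript and less of it per cell cannot be told apart.

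NOTCH1 itself was at 12.4 FPKM in NOTCH1-labelled cells under ginkgolic acid and 5.03 under DMSO, against 6.18 under ginkgolic acid and 11.4 under DMSO in MCF10A cells. The DMSO values go against the label, so the line is called NOTCH1-labelled here, and every direction between lines rests on that label. The summed level of the mammary epithelial markers was between 398 and 1526 FPKM in the 4 groups, over 8 rows in the NOTCH1-labelled table and 7 in that of MCF10A, which joins KRT5 with other symbols. The lists of endothelial, leukocyte, fibroblast and adipocyte markers, with 3 to 4 single rows each, summed to between 1.02 and 16.4 FPKM in each group. These sums leave out the fibroblast marker PDGFRA, whose row is joined with other symbols. That joined row was at 157 FPKM under ginkgolic acid and 117 under DMSO in NOTCH1-labelled cells, against 159 and 119 in MCF10A. The leukocyte marker PTPRC was at 6.15 FPKM under ginkgolic acid and 2.28 under DMSO in NOTCH1-labelled cells, and the endothelial marker CLDN5 was listed at 0 in MCF10A under DMSO only. The part of such markers in the results below was not tested.

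The 3 genes that differed by at least 2-fold in MCF10A were CLDN4, MARVELD2 and CLDN1. The 250 bases before their annotated starts are shown because these genes were lower together in one line. They are RefSeq windows on GRCh38.p14, printed 5′ to 3′ on the strand of the gene, and cover chr7:73830746-73830995 on the plus strand for CLDN4, chr5:69414866-69415115 on the plus strand for MARVELD2 and chr3:190322447-190322696 on the minus strand for CLDN1. Capitals mark TGACTCA, the AP-1 motif.
CLDN4: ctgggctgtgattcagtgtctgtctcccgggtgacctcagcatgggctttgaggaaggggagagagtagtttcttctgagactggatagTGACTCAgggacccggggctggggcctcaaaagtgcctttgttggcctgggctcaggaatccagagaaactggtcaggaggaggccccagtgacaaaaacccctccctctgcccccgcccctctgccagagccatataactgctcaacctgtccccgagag
MARVELD2: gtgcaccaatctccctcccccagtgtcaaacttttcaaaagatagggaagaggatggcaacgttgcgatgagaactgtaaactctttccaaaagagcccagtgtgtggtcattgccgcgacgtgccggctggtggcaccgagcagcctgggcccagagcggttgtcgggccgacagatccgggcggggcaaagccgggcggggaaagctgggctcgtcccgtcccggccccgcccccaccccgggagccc
CLDN1: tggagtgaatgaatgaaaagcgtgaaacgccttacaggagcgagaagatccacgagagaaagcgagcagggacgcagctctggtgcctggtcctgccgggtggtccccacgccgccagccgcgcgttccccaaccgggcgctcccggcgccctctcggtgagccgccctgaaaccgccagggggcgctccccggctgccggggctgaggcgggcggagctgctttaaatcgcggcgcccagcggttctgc

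Windows were searched on both strands for 3 motifs. TGACTCA was found in the CLDN4 window, starting 161 bases before the start, in none of the other 10 windows found for these genes, and in 4.2% of 35116 such windows of all genes. CAGGTG, the E-box of SNAI and ZEB repressors, was not in the windows of CLDN4, MARVELD2 or CLDN1. It was in both windows of OCLN, beginning 33 bases before one start and 133 bases before the other, and in 1 of 4 TJP1 windows, 88 bases before the start. Of all windows, 17.5% held it. AACCGGTT, the Grainyhead motif, was in none of the 11 windows found for 7 of the 9 genes and in 0.117% of all windows. The CLDN1, MARVELD2 and CLDN4 windows had 68.8%, 64.4% and 58.8% G or C, where the median of all windows was 58.0%. A motif match only describes these letters.

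In MCF10A, 3 of the 5 measured genes were lower by 2-fold or more under ginkgolic acid, where 15.4% of all 17791 genes with a ratio were, and 0 of 5 were higher by 2-fold or more, where 24.2% of all genes were. With at least 5 FPKM in either group, a level that all 5 genes reach, these shares of all genes were 17% and 12.4%. In NOTCH1-labelled cells, 0 of 5 were higher by 2-fold or more and 0 of 5 lower by 2-fold or more, where 18.9% and 19% of 19619 genes were. At the 5 FPKM minimum the shares were 19.5% and 9.61%. The median log2 ratio of the 5 genes was 0.35 in NOTCH1-labelled cells and −1.14 in MCF10A, against medians of 0.06 and 0.06 over all genes with a ratio. Among genes that reached 1 FPKM in both groups the median was 0.14 in the NOTCH1-labelled table and −0.11 in that of MCF10A, and ratios relative to these medians are given below as centred values.

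**Figure D1:**
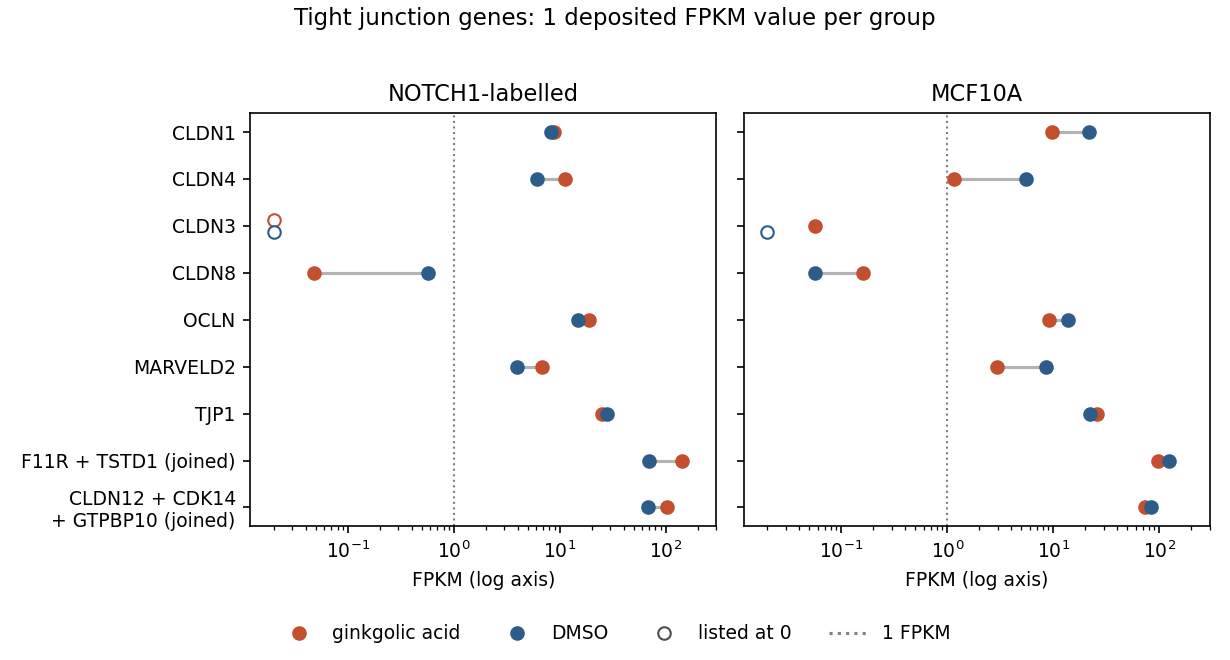
FPKM on a log axis for the 9 tight junction genes under ginkgolic acid and under DMSO, NOTCH1-labelled cells on the left and MCF10A on the right, with 1 deposited value per point and open circles for values listed at 0. In MCF10A the ginkgolic acid points of CLDN4, MARVELD2 and CLDN1 lie left of their DMSO points, and CLDN3 and CLDN8 lie below 1 FPKM in all 4 groups.

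CLDN4 encodes a claudin of many simple epithelia, known as a receptor for a clostridial enterotoxin, and lies on chromosome 7 (hg19, 73213852 to 73247014 in the NOTCH1-labelled table and 73213871 to 73247047 in that of MCF10A). It was at 11.3 FPKM under ginkgolic acid and 6.05 under DMSO in NOTCH1-labelled cells. In MCF10A it was at 1.16 FPKM under ginkgolic acid and 5.59 under DMSO. The DMSO levels of the lines were therefore close while the ginkgolic acid levels lay on opposite sides of them. The log2 ratio was 0.90 in NOTCH1-labelled cells (centred 0.76) and −2.27 in MCF10A (centred −2.16), where the level under ginkgolic acid was 4.82-fold lower. Only 2.67% of MCF10A genes had a lower ratio. Under ginkgolic acid in MCF10A, CLDN4 was near the 1 FPKM minimum, a level below which 7.23% of genes at or above that minimum lay. Olfactory receptor genes, a yardstick of silent genes described below, had a percentile 90 of 1.12 FPKM in that group. Their medians in MCF10A were 0.494 FPKM under ginkgolic acid and 0.144 under DMSO, the direction opposite to CLDN4. The size of the CLDN4 ratio in MCF10A thus rests on a value near the level of silent genes.

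MARVELD2, whose product tricellulin sits where 3 cells meet, lies on chromosome 5 (hg19, 68710938 to 68740157 in the NOTCH1-labelled table and 68710925 to 68740157 in that of MCF10A). In NOTCH1-labelled cells it was at 6.80 FPKM under ginkgolic acid and 3.95 under DMSO. In MCF10A it was at 2.92 FPKM under ginkgolic acid and 8.49 under DMSO. Its DMSO level was thus the lower of both groups in one line and the higher in the other. The log2 ratio was 0.78 in NOTCH1-labelled cells (centred 0.65) and −1.54 in MCF10A (centred −1.43), a 2.91-fold lower level, and 7.59% of MCF10A genes had a lower ratio.

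CLDN1 encodes a claudin needed for the barrier of the epidermis and lies on chromosome 3 (hg19, 190023489 to 190040264 in both tables). It was at 8.82 FPKM under ginkgolic acid and 8.34 under DMSO in NOTCH1-labelled cells. In MCF10A it was at 9.79 FPKM under ginkgolic acid and 21.6 under DMSO. Of the 4 values, the MCF10A DMSO group alone stands apart, since the other 3 lie between 8.34 and 9.79 FPKM. The log2 ratio was 0.08 in NOTCH1-labelled cells, a sign that turns when centred (−0.06), and −1.14 in MCF10A (centred −1.03), where the level was 2.20-fold lower.

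OCLN, for occludin, lies on chromosome 5 in a locus of 233044 bases (hg19, 68773298 to 69006341). It was at 19.0 FPKM under ginkgolic acid and 14.9 under DMSO in NOTCH1-labelled cells, against 9.10 under ginkgolic acid and 13.7 under DMSO in MCF10A. The direction differed between lines as for CLDN4 and MARVELD2, but neither ratio reached 2-fold. The log2 ratios were 0.35 in NOTCH1-labelled cells (centred 0.21) and −0.59 in MCF10A (centred −0.48). The OCLN values are uncertain in that 9 other rows share the locus and GENCODE release 29 lists a pseudogene of it, OCLNP1, on the same chromosome. The U6 snRNA row of that locus was at 199 FPKM under ginkgolic acid and 0 under DMSO in NOTCH1-labelled cells, against 50.4 under ginkgolic acid and 0 under DMSO in MCF10A. The part of these rows in the OCLN values was not tested.

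TJP1, for the scaffold ZO-1, lies on chromosome 15 (hg19, 29991570 to 30261068). It was at 24.8 FPKM under ginkgolic acid and 28.0 under DMSO in NOTCH1-labelled cells, against 25.8 under ginkgolic acid and 22.4 under DMSO in MCF10A. Its log2 ratio was −0.17 in NOTCH1-labelled cells (centred −0.31) and 0.21 in MCF10A (centred 0.32), where it was the smallest in absolute size of the 5 genes. Both signs were opposite to those of the 4 measured membrane members, except that the centred ratio of CLDN1 in NOTCH1-labelled cells was also below 0. TJP1 was the highest of the 5 genes by FPKM in every group.

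CLDN3 and CLDN8 were at or near 0. CLDN3, on chromosome 7 (hg19, 73183327 to 73184600), was listed at 0 in both NOTCH1-labelled groups and in MCF10A under DMSO, and at 0.0563 FPKM in MCF10A under ginkgolic acid. CLDN8, on chromosome 21 (hg19, 31586323 to 31588391), was at 0.0478 FPKM under ginkgolic acid and 0.575 under DMSO in NOTCH1-labelled cells, against 0.162 under ginkgolic acid and 0.0566 under DMSO in MCF10A. Olfactory receptor genes, mostly silent outside sensory neurons and used here as a yardstick chosen with the data known, had medians of 0.233 FPKM under ginkgolic acid and 0.486 under DMSO in NOTCH1-labelled cells, against 0.494 under ginkgolic acid and 0.144 under DMSO in MCF10A. The CLDN8 values differed in the same direction as this yardstick in each line and stayed below its percentile 90, so no change is read from them.

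The joined rows cannot be assigned to 1 gene. The row of F11R and TSTD1, on chromosome 1 (hg19, 160965000 to 161008784), was at 143 FPKM under ginkgolic acid and 69.7 under DMSO in NOTCH1-labelled cells, against 98.0 under ginkgolic acid and 124 under DMSO in MCF10A. Its log2 ratios were 1.03 in NOTCH1-labelled cells, or 0.90 when centred, and −0.34 in MCF10A. The row of CLDN12, CDK14 and GTPBP10, on chromosome 7 (hg19, 89964536 to 90839905), was at 103 FPKM under ginkgolic acid and 67.8 under DMSO in NOTCH1-labelled cells, against 74.1 under ginkgolic acid and 83.5 under DMSO in MCF10A, with log2 ratios of 0.61 and −0.17. Both rows were thus higher under ginkgolic acid in NOTCH1-labelled cells and lower in MCF10A. CLDN12 is known as a claudin without the PDZ-binding end that other claudins use to bind ZO proteins.

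The log2 ratio was compared between lines by subtracting the MCF10A value from the NOTCH1-labelled value. The difference was at least 1 for 3 of the 5 genes, CLDN4 (3.17), MARVELD2 (2.33) and CLDN1 (1.22), where 21.5% of 15582 genes had such a difference, or 24.9% at the 5 FPKM minimum. For 0 of the 5 it was −1 or lower, where 22.5% of genes were, or 8.17% at the 5 FPKM minimum. OCLN had 0.94 and TJP1 −0.38. The differences of CLDN4 and MARVELD2 exceeded those of 98.7% and 96.6% of genes, and that of CLDN1 exceeded 84.2%. When the median ratio of each table was removed, CLDN1 had 0.97 and no longer reached 1, while CLDN4 had 2.92 and MARVELD2 2.08. With a ratio above 0 in NOTCH1-labelled cells and below 0 in MCF10A, CLDN4, MARVELD2, CLDN1 and OCLN lay in a quadrant that held 24.5% of all genes and 31.3% of those at the 5 FPKM minimum. None of these differences was tested.

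**Figure D2:**
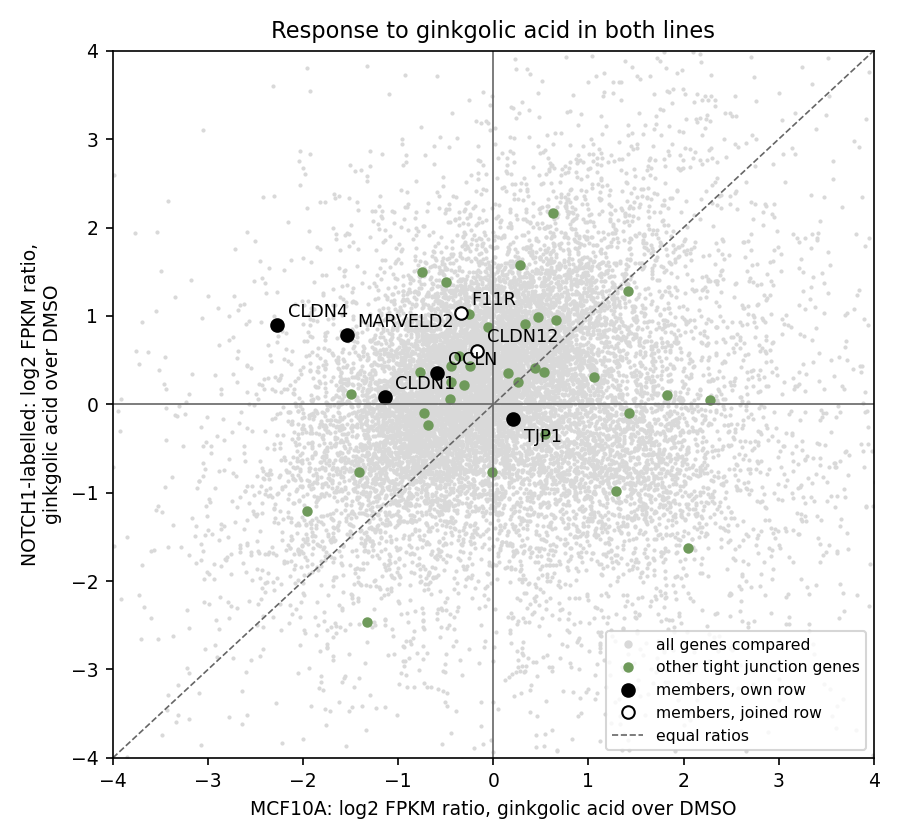
Log2 FPKM ratio of ginkgolic acid over DMSO in MCF10A (x axis) and in NOTCH1-labelled cells (y axis), with all 15582 genes compared in grey, other tight junction genes in green and the members in black, open where the row is joined. Of the members with a row of their own, CLDN4, at −2.27 and 0.90, and MARVELD2, at −1.54 and 0.78, lie farthest into the upper left, TJP1 lies to the lower right of the origin, and 267 genes lie beyond the axes.

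Set side by side across the separately scaled tables, CLDN1 was at 8.34 FPKM in NOTCH1-labelled and 21.6 in MCF10A DMSO cells, and MARVELD2 at 3.95 and 8.49, whereas CLDN4, OCLN and TJP1 had log2 ratios of 0.11, 0.12 and 0.32 between the lines. Under ginkgolic acid the order was another: CLDN4 had a log2 ratio of 3.28 between the NOTCH1-labelled and MCF10A lines, MARVELD2 1.22, OCLN 1.06, TJP1 −0.06 and CLDN1 −0.15.

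FPKM values are scaled by length, so the genes can be ordered by level within a group, although neighbours cannot be set against a spread. In NOTCH1-labelled cells under ginkgolic acid the order was TJP1, OCLN, CLDN4, CLDN1 and MARVELD2, and under DMSO it was TJP1, OCLN, CLDN1, CLDN4 and MARVELD2. In MCF10A it was TJP1, CLDN1, OCLN, MARVELD2 and CLDN4 in both groups. CLDN1 and OCLN were close to each other in MCF10A under ginkgolic acid (9.79 and 9.10 FPKM), and TJP1 and CLDN1 in MCF10A under DMSO (22.4 and 21.6 FPKM).

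A ratio of 2 members within a group is free of the scale of the table. Relative to TJP1, CLDN4 had 45.4% of its FPKM under ginkgolic acid and 21.6% under DMSO in NOTCH1-labelled cells. In MCF10A these shares were 4.48% under ginkgolic acid and 25.0% under DMSO. The CLDN4 share was thus alike in both DMSO groups and apart in the ginkgolic acid groups. OCLN had 76.4% of the TJP1 level under ginkgolic acid and 53.3% under DMSO in NOTCH1-labelled cells, against 35.2% under ginkgolic acid and 61.3% under DMSO in MCF10A. MARVELD2 had 27.4% under ginkgolic acid and 14.1% under DMSO in NOTCH1-labelled cells, against 11.3% under ginkgolic acid and 37.9% under DMSO in MCF10A. For CLDN1, the share was 35.5% under ginkgolic acid and 29.8% under DMSO in NOTCH1-labelled cells, against 37.9% under ginkgolic acid and 96.4% under DMSO in MCF10A. TJP1 itself had log2 ratios of −0.17 in NOTCH1-labelled cells and 0.21 in MCF10A, so its own differences widen all of these contrasts. For CLDN1 in NOTCH1-labelled cells, with a log2 ratio of 0.08, TJP1 makes the larger part of the difference in share.

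**Figure D3:**
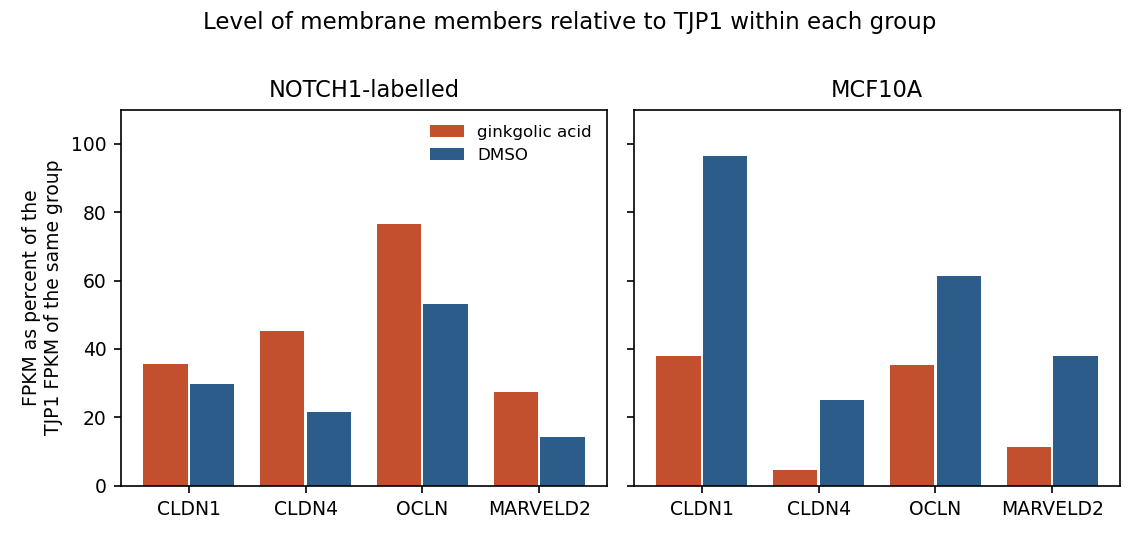
FPKM of CLDN1, CLDN4, OCLN and MARVELD2 as a percentage of the TJP1 FPKM of the same group (y axis from 0), for ginkgolic acid and DMSO, NOTCH1-labelled cells on the left and MCF10A on the right, 1 value per bar. All 4 bars are higher under ginkgolic acid in NOTCH1-labelled cells and lower in MCF10A, where CLDN1 has the tallest DMSO bar at 96.4%. TJP1 itself was lower under ginkgolic acid in NOTCH1-labelled cells and higher in MCF10A, which widens these contrasts.

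By Euclidean distance over the 4 log2 FPKM values, among 11854 other genes that reached 1 FPKM in all 4 groups, the gene nearest to MARVELD2 was FHOD1 (distance 0.13), with ratios of 0.72 in NOTCH1-labelled cells and −1.46 in MCF10A. PAFAH2 came next (0.40). SH2D3A (0.20) and FASTK (0.36) were nearest to CLDN1, ITPR3 and ITPK1 (both 0.20) to OCLN, and MAPKAPK5 (0.17) and CHMP2B (0.19) to TJP1. CLDN4 had no gene as close, with KIAA0895L at 0.81 and SERPINB7 nearest at 0.77 and ratios of 1.09 in NOTCH1-labelled cells and −1.91 in MCF10A. The likeness rests on 4 values and 2 separately scaled tables.

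Other tight junction genes were taken from a list of 59 genes with a row, of which 55 had a row of their own. In NOTCH1-labelled cells 41 of them had a ratio at the 1 FPKM minimum, with 8 higher by 2-fold or more, 3 lower by 2-fold or more and a median log2 ratio of 0.31, where 18.9% and 19% of all genes were higher and lower by that size. In MCF10A 37 had a ratio, with 7 higher by 2-fold or more, 4 lower by 2-fold or more and a median of −0.02, below 0 as scaled by the authors and 0.09 when centred, where 24.2% and 15.4% of all genes were higher and lower by that size. The count of higher genes in NOTCH1-labelled cells is thus near that of all genes. Its MCF10A median of −0.02 stands beside −1.14 for the 5 members. Between the lines, 7 of 35 had a difference of at least 1 and 6 of −1 or lower, where 21.5% and 22.5% of all genes did, with a median of 0.52 against 0.22 over all genes. At the 5 FPKM minimum these shares of all genes were 24.9% and 8.17%. The list was not compared between the lines at that minimum, so its median is not read as particular to it.

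Of 17 other claudin genes with a row of their own, 7 reached 1 FPKM in NOTCH1-labelled cells, against 3 in MCF10A. Of all genes, 22226 of 43325 and 20285 of 43299 did. Several of the 7 reached no more than 1.17 FPKM. In that line, percentile 90 of the olfactory receptor genes was 0.909 FPKM under ginkgolic acid and 1.22 under DMSO. No difference between the lines is read from these counts. CLDN15, a cation-pore claudin of the intestine, was at 0.2996 FPKM under ginkgolic acid and 1.65 under DMSO in NOTCH1-labelled cells, against 1.44 under ginkgolic acid and 3.61 under DMSO in MCF10A, lower by at least 2-fold in both. In NOTCH1-labelled cells that is the direction of the olfactory receptor medians, so no change in CLDN15 is read there. CLDN11, known from myelin and the testis barrier, was at 7.64 FPKM under ginkgolic acid and 8.19 under DMSO in NOTCH1-labelled cells, against 5.06 under ginkgolic acid and 1.88 under DMSO in MCF10A. CLDN6, an embryonic claudin, was at 4.19 FPKM under ginkgolic acid and 1.30 under DMSO in NOTCH1-labelled cells, against 0.948 under ginkgolic acid and 0.327 under DMSO in MCF10A. CLDN22 was at 1.09 FPKM under ginkgolic acid and 0.435 under DMSO in NOTCH1-labelled cells, against 0.483 under ginkgolic acid and 0.159 under DMSO in MCF10A. In MCF10A, CLDN6 and CLDN22 stayed below 1 FPKM and differed in the direction of the olfactory receptor medians. No other claudin gene with a row of its own thus reached the DMSO level of CLDN1 in either table. In NOTCH1-labelled cells under DMSO, CLDN11 was close to it (8.19 and 8.34 FPKM). CLDN7 shares its row with 3 other symbols and CLDND1 with CPOX, and neither was counted. Both joined rows were far above CLDN1. The CLDN7 row was at 296 FPKM under ginkgolic acid and 167 under DMSO in NOTCH1-labelled cells, against 165 and 253 in MCF10A. The CLDND1 row was at 269 and 156 FPKM in NOTCH1-labelled cells, against 157 and 133 in MCF10A. Whether CLDN1 is the highest claudin gene can therefore not be told.

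Among other membrane proteins of the junction, EPCAM, an adhesion molecule that binds claudins, was higher under ginkgolic acid in both lines, at 223 FPKM under ginkgolic acid and 91.6 under DMSO in NOTCH1-labelled cells, against 110.2 under ginkgolic acid and 41.2 under DMSO in MCF10A. The virus receptor and adhesion gene CXADR was at 62.3 FPKM under ginkgolic acid and 20.9 under DMSO in NOTCH1-labelled cells, against 29.2 under ginkgolic acid and 23.9 under DMSO in MCF10A. LSR, which recruits tricellulin to tricellular contacts, was at 4.70 FPKM under ginkgolic acid and 1.66 under DMSO in NOTCH1-labelled cells, against 3.15 under ginkgolic acid and 5.28 under DMSO in MCF10A, so that it lay on the same sides as MARVELD2. BVES, a low gene, was at 0.608 FPKM under ginkgolic acid and 1.20 under DMSO in NOTCH1-labelled cells, against 2.28 under ginkgolic acid and 0.934 under DMSO in MCF10A. These directions are those of the olfactory receptor medians in each line, so no change is read from them. Of these genes, EPCAM alone was higher by 2-fold or more in both lines. JAM3, of the family of F11R, had log2 ratios of 1.39 in NOTCH1-labelled cells and −0.50 in MCF10A. MARVELD3, the third MARVEL gene, had ratios of −0.09 and −0.73. In all, 4 of 9 measured genes were higher by 2-fold or more in NOTCH1-labelled cells and 2 of 9 in MCF10A, BVES among them, and none of the 9 was lower by 2-fold or more in either.

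Among genes of the cytoplasmic plaque and polarity complexes, 2 of 26 were higher by 2-fold or more and 2 lower in NOTCH1-labelled cells, and 4 of 25 higher and 3 lower in MCF10A. CGN, for cingulin, which links ZO proteins to myosin, was at 7.22 FPKM under ginkgolic acid and 16.7 under DMSO in NOTCH1-labelled cells, against 2.69 under ginkgolic acid and 10.5 under DMSO in MCF10A. ARHGEF2, a RhoA exchange factor held at the junction by cingulin, was at 76.5 FPKM under ginkgolic acid and 17.1 under DMSO in NOTCH1-labelled cells, against 40.9 under ginkgolic acid and 26.4 under DMSO in MCF10A. The ZO-3 gene TJP3 had log2 ratios of 0.25 in NOTCH1-labelled cells and −0.44 in MCF10A. In MCF10A, PARD3B, a polarity gene, had a log2 ratio of 2.28, and AMOTL1 and TJAP1 had −1.41 and −1.50. CGNL1, the paralog of cingulin, had −1.62 in NOTCH1-labelled cells and 2.05 in MCF10A, at no more than 2.07 FPKM in any group and in the directions of the olfactory receptor medians, so no change is read from it. MAGI2 had a log2 ratio of 0.11 in NOTCH1-labelled cells and 1.83 in MCF10A. In MCF10A, MAGI2 was at 2.02 FPKM under ginkgolic acid and 0.570 under DMSO. That is also the direction of the olfactory receptor medians, so no change is read from it there. SYMPK had log2 ratios of 1.02 in NOTCH1-labelled cells and −0.26 in MCF10A.

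**Figure D4:**
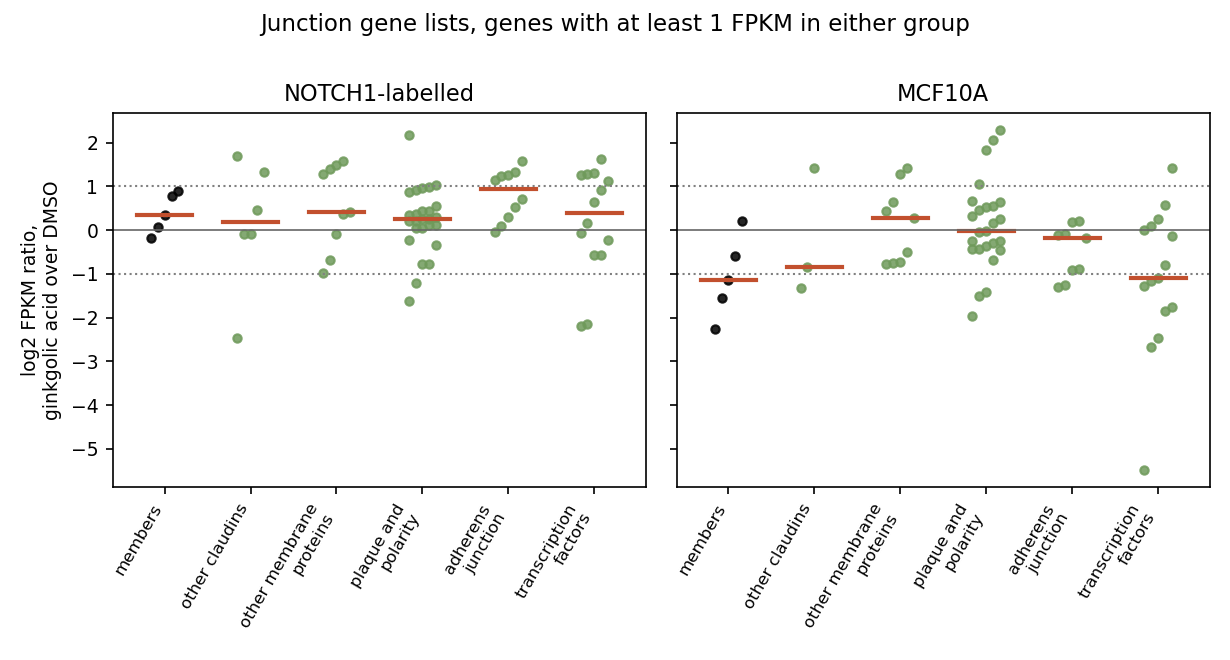
Log2 FPKM ratio of ginkgolic acid over DMSO for measured genes of each list, NOTCH1-labelled cells on the left and MCF10A on the right, with 1 point per gene, a red line at the median and dotted lines at 2-fold. The members have a median of 0.35 in NOTCH1-labelled cells and −1.14 in MCF10A, and the plaque and polarity genes have medians of 0.25 and −0.02.

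Adherens junctions lie just below tight junctions. Of 10 measured genes in NOTCH1-labelled cells, 5 were higher by 2-fold or more under ginkgolic acid and 0 lower by 2-fold or more, and of 9 in MCF10A, 0 were higher and 2 lower by that size. Of all genes, 18.9% were higher and 19% lower by 2-fold or more in NOTCH1-labelled cells, and 24.2% higher and 15.4% lower in MCF10A. These shares also stand beside the counts of the other lists. The measured adherens junction genes all reach 5 FPKM in either group. At that minimum the shares were 19.5% higher and 9.61% lower in NOTCH1-labelled cells, and 12.4% higher and 17% lower in MCF10A. The E-cadherin gene CDH1 was at 63.9 FPKM under ginkgolic acid and 65.8 under DMSO in NOTCH1-labelled cells, against 39.2 under ginkgolic acid and 96.6 under DMSO in MCF10A. The P-cadherin gene CDH3 had log2 ratios of 0.10 in NOTCH1-labelled cells and −1.26 in MCF10A. Both cadherin genes and CLDN1 were thus lower by more than 2-fold in MCF10A and within 2-fold in NOTCH1-labelled cells. The 5 higher genes were the nectin genes PVRL1, PVRL2, PVRL3 and PVRL4 and the afadin gene MLLT4, with log2 ratios between 1.15 and 1.59 in NOTCH1-labelled cells.

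Among transcription factors known to act on junction genes, 5 of 14 were higher by 2-fold or more and 2 lower in NOTCH1-labelled cells, and 1 of 15 higher and 8 lower in MCF10A. ZEB1, a repressor of epithelial junction genes, was at 8.12 FPKM under ginkgolic acid and 3.72 under DMSO in NOTCH1-labelled cells, against 0.780 under ginkgolic acid and 4.96 under DMSO in MCF10A. These are the same sides as those of CLDN4 and MARVELD2. GRHL2, an activator of CLDN4 in mouse epithelia, was at 1.79 FPKM under ginkgolic acid and 8.18 under DMSO in NOTCH1-labelled cells, against 8.18 under ginkgolic acid and 6.88 under DMSO in MCF10A, which are not the sides of CLDN4. TWIST1, a mesenchymal regulator, was at 65.7 FPKM under ginkgolic acid and 27.5 under DMSO in NOTCH1-labelled cells, against 71.2 under ginkgolic acid and 26.5 under DMSO in MCF10A. EHF, an epithelial factor, had log2 ratios of −2.14 in NOTCH1-labelled cells and −5.48 in MCF10A, KLF5 had 0.63 and −1.84, and GRHL1 −0.58 and −1.76. OVOL1 had 1.62 and −2.46, at no more than 1.86 FPKM in any group and with the lower value of each line below 1 FPKM. ELF3 and KLF4, at 1.28 and 1.31 in NOTCH1-labelled cells, had 0.09 and 0.57 in MCF10A. SNAI1 stayed below 1 FPKM in all 4 groups. Relations between these factors and the junction genes were not tested.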

How the data were processed

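Per the labels' protocols, total RNA came from an RNeasy kit and libraries from a ScriptSeq Complete Gold kit. The submitters' processing notes name Cuffdiff 2.1.1, Cufflinks 2.1.1, TopHat2 2.0.8b and Bowtie2 2.1.0 and the build hg19 (GRCh37). Not given in the sources used here: annotation, strand setting and how samples were combined. Deposited were 1 table per line by the authors, and per the file headers the values are FPKM, 1 per gene and group.

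Joined and unnamed rows, loci shorter than 200 bases, other sequences than the main chromosomes and repeated symbols were left out, leaving 43325 gene rows in the NOTCH1-labelled table and 43299 in that of MCF10A. A gene had to reach 1 FPKM in 1 or both groups. Ratios, ginkgolic acid over DMSO, are on the log2 scale with no pseudocount, and none was formed with a value listed at 0. The planned test needs values per sample, so a 2-fold size rule took its place. Members and gene lists were chosen with earlier results of these data known. Named genes of the lists are those at least 2-fold apart in a line, up to 6 per list and line by absolute ratio, and TJP3, MARVELD3, CLDN5, PTPRC and SNAI1 were named outside this rule. Positions come from the tables, and 37361 of 43241 genes had the same locus in both. The ratio calculation was run on copies of the DMSO values with set changes and no noise, which checks only the code. Python 3.11.15, numpy 2.4.6, pandas 2.3.3 and matplotlib 3.10.9 were used.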

Additional observations from a re-analysis of the deposited data

Results flagged for a closer look

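For 3 genes the log2 ratio of ginkgolic acid over DMSO lay above 0 in NOTCH1-labelled cells and below 0 in MCF10A, at least 1 apart. The difference was 3.17 for CLDN4, 2.33 for MARVELD2 and 1.22 for CLDN1. Each rests on 1 value per group, was not tested, and depends on a line label that the NOTCH1 level in DMSO goes against. The sign of CLDN1 in NOTCH1-labelled cells turns when the median ratio is removed (−0.06).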

How the results depend on the processing

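No paired analysis was possible because the tables hold 1 value per group, and for the same reason no sample could be left out. The 3 of 5 members lower by at least 2-fold in MCF10A stayed at 3 under 5 other settings and became 4 under the 1.5-fold rule, with OCLN. The 3 whose log2 ratio in NOTCH1-labelled cells exceeded that in MCF10A by 1 or more became 2 with the median ratio removed, 4 under the 1.5-fold rule, with OCLN, and 4 with joined rows added, with the F11R row. Without a minimum FPKM, CLDN8 adds 1 higher member in MCF10A, 1 lower in NOTCH1-labelled cells and 1 whose ratio is lower by at least 1 in NOTCH1-labelled cells. In NOTCH1-labelled cells, 2 members were higher under a 1.5-fold rule and 1 with joined rows added, where the main count was 0. For other tight junction genes, the 8 higher in NOTCH1-labelled cells became 5 with a minimum of 5 FPKM. The 3 lower became 9 without a minimum, 1 with a minimum of 5 FPKM, 7 under the 1.5-fold rule and 5 with joined rows. In MCF10A the 7 higher became 14 without a minimum and 4 with a minimum of 5 FPKM or a pseudocount of 1 FPKM, and the 4 lower became 9 under the 1.5-fold rule. A looser minimum or fold rule can only add genes to a count, and a stricter one can only remove them. The side on which genes were added is not set by the rule. Without a minimum, the 4 lower in MCF10A became 5 and the 8 higher in NOTCH1-labelled cells became 9. What lies behind these sides was not tested. Of the single ratios, CLDN1 in NOTCH1-labelled cells turned to −0.056 with the median ratio removed. Depth is unknown, and levels near 1 FPKM, such as CLDN4 in MCF10A with ginkgolic acid, are the least certain.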
